A study of Mus musculus with 32 samples.

Results

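The genes described here encode the subunits of the voltage-gated sodium and voltage-gated calcium channels. They are 35 genes, read by 67 probes, whose array name begins with Scn and a digit or with Cacna, Cacnb or Cacng, out of 27573 genes or single probes and 41174 probes on the array. The rule used names and no measured value, but it was set with earlier results of these data known. They comprise 8 sodium channel alpha genes, 2 sodium channel beta genes, 9 calcium channel alpha1 genes, 4 alpha2delta genes, 4 calcium channel beta genes and 8 gamma genes. Each gene was read from its brightest probe. The probes lay on 2-colour Agilent arrays hybridised with amplified RNA from cells captured by laser from frozen lumbar spinal cord, 500 cells per mouse, from female mice. The SOD1-G93A mice, B6SJL-Tg(SOD1-G93A)1Gur, which carry a mutant human superoxide dismutase and model amyotrophic lateral sclerosis, were 8 weeks old and were set against B6SJL littermates. The TAU-P301L mice, B6D2F1-Tg(TAU-P301L), with a mutant tau transgene, were aged 16 weeks and were set against B6D2F1 littermates, so that model, age and colony differ together. What drives the transgenes is not given in the sources used here. The 4 comparisons are motor neurons of the SOD1-G93A mice (SODmn), the cells surrounding them (SODgl, called glia), and the same for the TAU-P301L mice (TAUmn and TAUgl). Each held 4 pairs of a transgenic and a control littermate, and each pair was measured on 2 arrays with the dyes exchanged. No label ties a motor neuron extract to a glia extract of the same mouse.

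Voltage-gated sodium channels open on depolarisation and carry the rising phase of the action potential. Their alpha subunit forms the pore, and the beta subunits set gating and anchor the channel at the axon initial segment and the nodes. Voltage-gated calcium channels couple depolarisation to calcium entry, which triggers transmitter release, shapes firing and reaches gene regulation. Their alpha1 subunit forms the pore and defines the L, P/Q, N, R and T types, alpha2delta and beta subunits bring the pore to the membrane, and several of the gamma family serve as partners of AMPA-type glutamate receptors. Motor neurons are known for large sodium currents at the initial segment and for persistent inward calcium currents in the dendrites.

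Markers of the captured cells differed in the direction of the labels, with overlap. Among all 9929 genes measurable in the control extracts, 26.1% passed towards motor neurons and 14.5% towards glia after adjustment. Of the motor neuron markers, 12 of 19 were measurable in the control extracts, and after adjustment 6 passed towards motor neurons and 1 towards glia. Neurofilament medium chain Nefm differed by 1.59 ± 0.20 (SE, adjusted p = 9.6e-05) on the log2 scale, motor neurons minus glia. Calcitonin precursor Calca differed by 2.21 ± 0.39 (SE, adjusted p = 7.4e-04). Of the 16 oligodendrocyte markers, 12 were measurable and 6 were higher in glia, among them Mag at -1.76 ± 0.30 (SE, adjusted p = 5.0e-04). Of the 16 astrocyte markers, 14 were measurable and 6 were higher in glia, among them Glul at -1.62 ± 0.36 (SE, adjusted p = 0.0030). With each channel scaled to its 75th percentile both calls were lost, with Mag at -0.50 (adjusted p = 0.35) and Glul at -0.42 (adjusted p = 0.56). In the B6SJL colony alone the Glul call was lost (adjusted p = 0.10) and so was that of Calca (adjusted p = 0.070). The mean log2 level of the measurable oligodendrocyte markers ran from 6.99 to 8.30 over control motor neuron extracts and from 8.5 to 9.05 over control glia extracts. That of the motor neuron markers ran from 7.77 to 8.87 and from 7.06 to 8.10, so the motor neuron markers overlapped between the captures. None of 6 skeletal muscle markers was measurable in any comparison. The share of probes well above background lay between 35.2% and 77.6% in the Cy3 channel and between 8.98% and 79.3% in the Cy5 channel. The dye-swapped arrays of a pair correlated between -0.75 and 0.67 over the genes tested, and 5 of 16 pairs were below 0: SODgl pairs 1 and 2, TAUmn pair 3 and TAUgl pairs 1 and 3. The files gave 6 scan batches. Scan batch 5 held SODgl pair 2 and TAUgl pair 1, which stood apart from the rest: both had correlations below 0 and lacked a value for 3622 and 5429 genes or single probes, against 7 to 210 in the remaining pairs. Without these extracts the calls of Nefm, Calca, Mag and Glul were kept. The motor neuron and glia arrays were scanned apart and carry different scanner software versions, so cell type, scan and software cannot be told apart. Fewer cells of a type and less RNA per cell cannot be told apart either.

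The channels differed widely in how often they were detected. A gene counted as detected in an extract when its probe was well above background on both arrays. Of the 35 genes, 20 (57.1%) were detected in enough extracts to be tested in at least 1 comparison, against 51.7% of all genes or single probes, and 13 were tested in all 4. Cacna2d2 and Cacnb1, 2 of the 35 genes (5.71%), were detected in all 32 extracts, against 2.18% of all genes or single probes. Of the sodium channel alpha genes, Scn4a, best known from skeletal muscle, was detected in 14 of 16 motor neuron extracts and 14 of 16 glia extracts, and Scn2a, a main sodium channel of brain axons, in 9 and 14. Scn10a, known from sensory neurons, was detected in 9 and 5. The other alpha genes were at the limit of the arrays: Scn3a, Scn7a and Scn11a were detected in 0 extracts, Scn9a in 1 glia extract and Scn1a in 4 glia extracts. Detection here is a property of probe and scan as well as of the gene, and a dim probe does not show that the channel is absent.

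Among the calcium channel pores the T-type gene Cacna1g was detected most often, in 15 motor neuron and 10 glia extracts of 16 each. Cacna1s, the L-type pore of skeletal muscle, was detected in 13 and 11, and Cacna1a, the P/Q-type pore that drives release at the neuromuscular junction, in 9 and 12. Cacna1h, another T-type pore, was detected in 7 and 6. The N-type Cacna1b, the R-type Cacna1e, the L-type Cacna1d and Cacna1f and the T-type Cacna1i were each detected in 1 to 4 motor neuron extracts and in 2 to 5 glia extracts, and none of these 5 was tested. All 4 alpha2delta genes and 3 of the 4 calcium channel beta genes were tested in at least 1 comparison, Cacnb3 being the exception. Of the gamma genes, Cacng2, Cacng5, Cacng6 and Cacng7 were tested, and Cacng1, Cacng3, Cacng4 and Cacng8 were not. The sodium channel beta genes Scn2b and Scn3b were tested in both motor neuron comparisons and not in TAUgl. The L-type pore gene Cacna1c is not among the 35, because the arrays of the glia name its probes by an accession. Its brighter probe was detected in 6 of 8 control motor neuron extracts and in 2 of 8 control glia extracts.

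**Figure D1:**
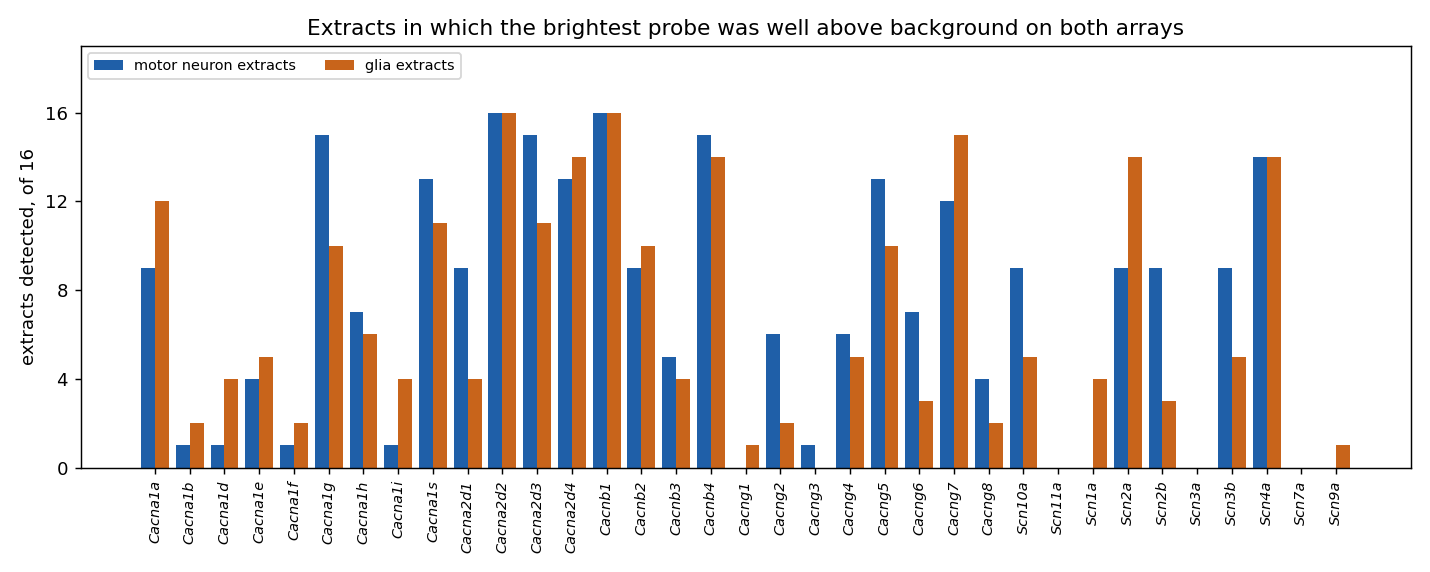
Bars give, for each of the 35 channel genes, the number of motor neuron extracts (blue) and glia extracts (orange), of 16 each, in which the brightest probe was well above background on both arrays. Cacna2d2 and Cacnb1 reach 16 in both, and Scn3a, Scn7a and Scn11a stand at 0 in both.

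Control motor neurons and control glia were compared first, as a map of where each channel was seen. Of 13 channel genes tested, 3 had higher levels in motor neurons and 2 had higher levels in glia. Over all 9929 genes 40.7% passed, 26.1% towards motor neurons and 14.5% towards glia, so the numbers of channel genes in each direction are near the background. Values are normalised log2 intensity of a gene's brightest probe, which can be compared between extracts of 1 gene and not between genes. The offset of 50 added in background correction compresses differences of dim probes, so their folds are understated.

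Cacna2d3, an alpha2delta subunit of neurons, ran from 7.0 to 7.85 with a median of 7.39 in the 8 control motor neuron extracts and from 6.03 to 6.85 with a median of 6.28 in the 8 control glia extracts. Every control motor neuron extract lay above every control glia extract, as in 6.59% of all genes in either direction. The difference was 1.1 ± 0.15 (SE), adjusted p = 1.4e-04, a 2.15-fold higher level. Cacna1g, the T-type pore Cav3.1, which supports low-threshold firing, ran from 6.79 to 7.83 with a median of 7.40 in the 8 control motor neuron extracts and from 5.98 to 7.05 with a median of 6.62 in the 8 control glia extracts. The groups overlapped, and the difference was 0.87 ± 0.19 (SE), adjusted p = 0.0024, or 1.83-fold. Cacng5, a gamma subunit that binds AMPA receptors, ran from 6.38 to 6.94 with a median of 6.71 in the 8 control motor neuron extracts and from 6.07 to 6.52 with a median of 6.27 in the 7 control glia extracts. The groups overlapped slightly, and the difference was 0.41 ± 0.089 (SE), adjusted p = 0.0026, or 1.33-fold. The transgenic extracts come from other mice but shared their arrays and scans with the control extracts, so they are not an independent repeat. In them 4 of 15 channel genes passed towards motor neurons and 1, Cacna2d4, towards glia. All genes gave 30.9% in either direction, 19.8% towards motor neurons and 11.1% towards glia. The differences there were 0.96 (adjusted p = 5.9e-04) for Cacna2d3, 0.88 (adjusted p = 0.0032) for Cacna1g and 0.35 (adjusted p = 0.0083) for Cacng5, and the remaining one, Scn10a, was at 0.20 (adjusted p = 0.032). In the B6SJL colony alone Cacna1g gave 0.70 with an adjusted p of 0.15, and in the B6D2F1 colony alone Cacng5 gave 0.37 with an adjusted p of 0.084. Neuronal markers of other kinds moved with these genes as well as the motor neuron markers given above. Of the general neuron markers 5 of 10 tested passed towards motor neurons, and of the interneuron markers 5 of 9. Towards glia 0 of either list passed, and 26.1% of all genes passed towards motor neurons. The part of these markers in the differences was not tested.

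Cacna2d4, an alpha2delta subunit best known from retina, ran from 6.16 to 6.70 with a median of 6.43 in the 8 control motor neuron extracts and from 6.45 to 7.53 with a median of 7.24 in the 8 control glia extracts, with overlap. The difference was -0.68 ± 0.13 (SE), adjusted p = 0.0012, or 1.61-fold higher in glia. Cacna2d2, an alpha2delta subunit that binds gabapentin, ran from 7.55 to 8.18 with a median of 7.83 in the 8 control motor neuron extracts and from 6.84 to 10.23 with a median of 8.91 in the 8 control glia extracts. It had the widest range of the 13 in glia, with TAUgl extract 4 at 10.23 and TAUgl extract 1, from scan batch 5, at 6.84. The difference was -0.92 ± 0.33 (SE), adjusted p = 0.037, or 1.89-fold higher in glia. The call was lost when each channel was scaled to its 75th percentile, at -0.11 with an adjusted p of 0.75. It was also lost without most single extracts: the adjusted p reached 0.069 without SODgl extract 4, and it was above 0.05 without any 1 of SODmn 1, 2 and 4, SODgl 1 and 4, TAUmn 1 and 4 or TAUgl 2, 3 and 4. In the transgenic extracts the differences were -0.53 (adjusted p = 0.0044) for Cacna2d4 and -0.54 (adjusted p = 0.11) for Cacna2d2. Within the B6SJL colony Cacna2d4 had an adjusted p of 0.080, and within the B6D2F1 colony Cacna2d2 had 0.33. Markers of oligodendrocytes and astrocytes moved with both genes, and so did other lists that are not neuronal. Towards glia 3 of 7 endothelial and pericyte, 3 of 11 microglia, 2 of 3 oligodendrocyte precursor and 1 of 2 red cell markers passed. Towards motor neurons 0 of these passed, and 14.5% of all genes passed towards glia. The part of all these markers was not tested.

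The alpha2delta family thus held the gene furthest towards motor neurons and both genes past the threshold towards glia. The promoter windows of Cacna2d3 and Cacna2d2 are shown because these members of 1 family lay on opposite sides. Each covers 250 bases before and 50 bases after the annotated start, from RefSeq on GRCm38.p6, written 5′ to 3′ in the direction of the gene. Capitals mark matches of GGGCGG on either strand, the GC box bound by Sp1-type factors. A window was found for 27 of the 35 genes, and Cacna1g and Cacna2d4 had none.
Cacna2d3, chr14:29721815-29722114, minus strand: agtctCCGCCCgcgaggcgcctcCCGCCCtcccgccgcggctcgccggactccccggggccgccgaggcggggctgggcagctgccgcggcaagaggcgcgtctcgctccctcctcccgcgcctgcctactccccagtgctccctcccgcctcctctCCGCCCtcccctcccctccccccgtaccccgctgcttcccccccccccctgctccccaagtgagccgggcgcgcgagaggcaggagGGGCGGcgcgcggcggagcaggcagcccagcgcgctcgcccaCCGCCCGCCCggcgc
Cacna2d2, chr9:107399630-107399929, plus strand: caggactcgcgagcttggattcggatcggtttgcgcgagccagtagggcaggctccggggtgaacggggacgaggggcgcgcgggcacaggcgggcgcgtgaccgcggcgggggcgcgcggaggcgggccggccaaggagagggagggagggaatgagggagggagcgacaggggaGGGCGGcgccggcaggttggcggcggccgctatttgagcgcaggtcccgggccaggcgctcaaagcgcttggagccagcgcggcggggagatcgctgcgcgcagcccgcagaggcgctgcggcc
The Cacna2d3 window held 6 matches, of which the last pair overlap, and 41 CpG dinucleotides. The Cacna2d2 window held 1 match and 43 CpG dinucleotides. Of all 32851 promoter windows of this length, 35.7% held GGGCGG, and 96.5% and 97.4% held fewer CpG dinucleotides than these. TATAAA, the E-box CACGTG and the parts TTCAGCACC and GGACAGC of the RE1 element, which the neuronal repressor REST binds, were searched on both strands and matched neither window. TATAAA occurs in 13.6% of all windows, CACGTG in 7.15%, TTCAGCACC in 0.371% and GGACAGC in 6.56%. A match is a string of letters and not a measured site, and these arrays do not bear on binding.

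The remaining 8 tested genes did not pass. Scn2a ran from 6.20 to 6.53 with a median of 6.41 in the 8 control motor neuron extracts and from 5.91 to 7.21 with a median of 7.14 in the 8 control glia extracts, with a difference of -0.44 ± 0.19 (SE), adjusted p = 0.073. Its glia values fell into an upper set from 6.81 to 7.21 in 6 extracts and the 2 extracts of scan batch 5 at 5.91 and 5.99. The same 2 extracts were the lowest for Cacnb1, at 6.37 and 6.13 against 7.23 to 8.14. They were also the lowest for Cacng7, at 6.39 and 6.36 against 6.65 to 7.08. In these 2 extracts the mean level of the astrocyte markers was 8.79 and 8.65 against 8.36 to 9.09 in the other 6 control glia extracts, and the oligodendrocyte mean 9.05 and 8.64 against 8.5 to 9.01. Without the extracts of scan batch 5, a choice made after seeing the data, 5 channel genes were higher in glia: Scn2a at -0.73 (adjusted p = 2.5e-05), Cacnb1 at -0.58 (adjusted p = 0.012), Cacng7 at -0.30 (adjusted p = 0.015), Cacna2d2 at -1.29 (adjusted p = 2.6e-04) and Cacna2d4 at -0.64 (adjusted p = 0.0037). The 3 genes higher in motor neurons stayed past the threshold, with Cacna2d3 at 1.05 (adjusted p = 3.0e-04). The part of the scan in these values was not tested. Over the alternatives run for levels, the calls over all genes ran from 209 to 7385. The count of 5 is therefore not read as a result about the channels.

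Cacnb1, a calcium channel beta subunit of muscle and neurons, ran from 6.87 to 7.56 with a median of 7.13 in the 8 control motor neuron extracts and from 6.13 to 8.14 with a median of 7.60 in the 8 control glia extracts and its difference was -0.20 ± 0.28 (SE), adjusted p = 0.58. Cacng7, a gamma subunit of AMPA receptors, ran from 6.24 to 6.80 with a median of 6.61 in the 8 control motor neuron extracts and from 6.36 to 7.08 with a median of 6.79 in the 8 control glia extracts, and its difference was -0.17 ± 0.11 (SE), adjusted p = 0.22. Both differences turn positive when each channel is scaled to its 75th percentile, to 0.26 and 0.023, a scaling that moves the median of all genes from 0.088 to 0.35 and the share of calls towards motor neurons from 64.3% to 89.6%. Relative to that median both remain below it. Cacna1s ran from 6.40 to 6.82 with a median of 6.55 in the 8 control motor neuron extracts and from 5.98 to 6.65 with a median of 6.37 in the 8 control glia extracts, with a difference of 0.20 ± 0.079 (SE), adjusted p = 0.056. Cacnb4, a beta subunit of the brain, ran from 6.68 to 8.01 with a median of 7.67 in the 8 control motor neuron extracts and from 6.40 to 7.86 with a median of 7.14 in the 7 control glia extracts, with a difference of 0.39 ± 0.21 (SE), adjusted p = 0.15. Cacnb2 differed by 0.087 ± 0.10 (SE), adjusted p = 0.52, and without scan batch 5 by -0.012. These 3 genes had no group apart from the other. Cacna1a and Scn4a had the differences nearest 0 of the 13. Cacna1a ran from 6.23 to 7.28 with a median of 6.35 in the 8 control motor neuron extracts and from 6.20 to 6.63 with a median of 6.45 in the 8 control glia extracts, with a difference of 0.024 ± 0.13 (SE), adjusted p = 0.89, and its motor neuron maximum is SODmn extract 3 alone. Scn4a differed by -0.056 ± 0.094 (SE), adjusted p = 0.65.

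**Figure D2:**
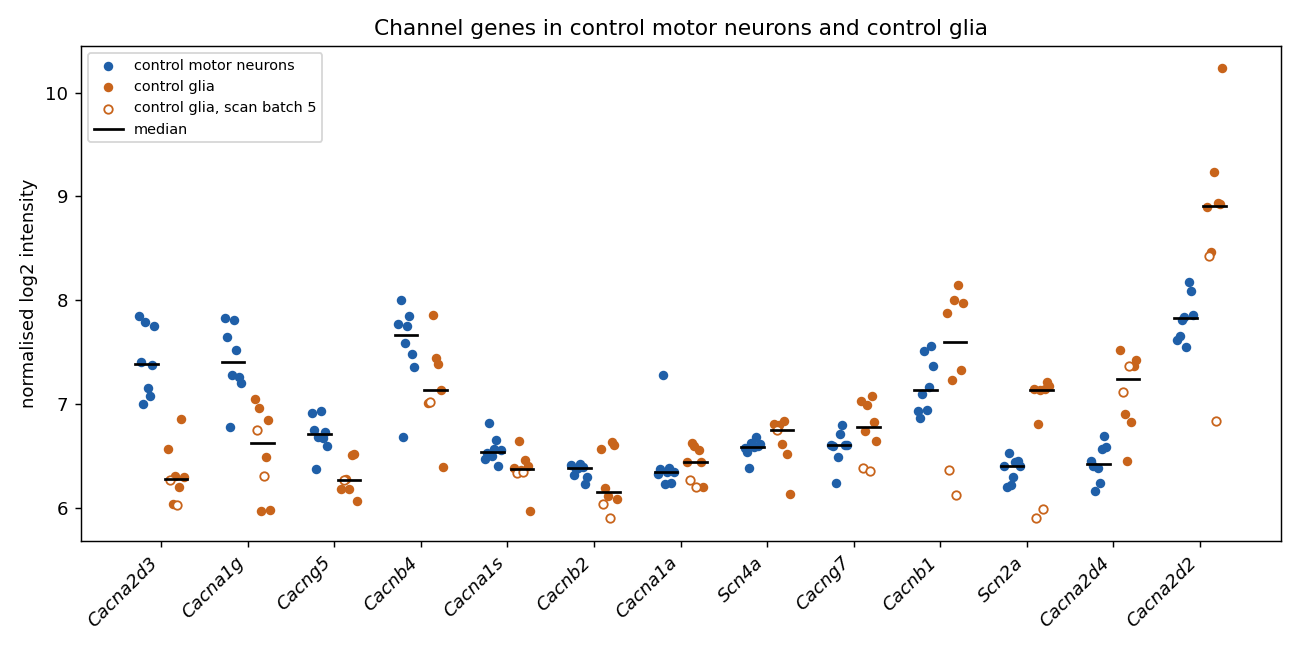
Normalised log2 intensity (vertical axis) of the 13 channel genes tested in control extracts, with motor neuron extracts in blue, glia extracts in orange, glia extracts of scan batch 5 as open circles and medians as black bars. Genes are ordered by their difference, and heights are not comparable between genes. The groups of Cacna2d3 do not overlap, and the open circles of Scn2a lie near 6 while the other glia values lie near 7.

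In SOD1-G93A motor neurons no channel gene differed from littermate controls after adjustment. Of 20 channel genes tested 0 passed, against 1 of 13298 genes (0.00752%) in limma, and 0 had an unadjusted p under 0.05, against 10.7% of all genes. Their ratios lay between -0.24 and 0.34 with a median of 0.016, while all genes tested had a median of 0.00019. All ratios are log2 of transgenic over control. Above 0 in every pair were 2 channel genes, Cacnb1 and Scn4a, against 5.69% of all genes. Cacnb1 read 0.063, 0.011, 0.13 and 0.48 in pairs 1 to 4, and pair 4 was far above the others. Its mean was 0.17 ± 0.21 (SD, n = 4 pairs), with SE 0.085, unadjusted p = 0.065, adjusted p = 0.49. Scn4a read 0.071, 0.053, 0.10 and 0.12 in pairs 1 to 4, with a mean of 0.086 ± 0.031 (SD, n = 4 pairs) and SE 0.047, unadjusted p = 0.089, adjusted p = 0.52. The largest mean ratio belonged to Cacng2, stargazin, and rested on 1 pair: it read 0.019, 0.014, 1.39 and -0.069 in pairs 1 to 4. Scn2b, a sodium channel beta subunit, read 0.45, 0.94, 0.020 and -0.24 in pairs 1 to 4, and Cacna2d3 -0.68, 0.075, -0.24 and -0.11 in pairs 1 to 4. These 3 were chosen after their values were seen, and each has pairs on both sides of 0. Pooled over pairs, the SD between dye-swapped arrays was 0.29 for Cacnb1, 0.12 for Scn4a, 1.01 for Cacng2 and 0.58 for Scn2b. Each of these exceeded the size of the gene's mean ratio. For Cacna2d3 the SD was 0.096, below the size of its mean ratio. Here and below this SD is the spread of a single array, and a mean ratio averages both arrays of every pair. The SD is thus not the error of the mean. Cell type markers leaned to 1 side in this comparison, and none passed the test: 13 of 13 oligodendrocyte markers were above 0, with a median of 0.11, 9 of 10 general neuron markers were below 0, with a median of -0.13, and so were 12 of 17 motor neuron markers, with a median of -0.16. The mean of the general neuron markers was below 0 in every pair. The part of these markers in the channel values was not tested.

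In SOD1-G93A glia 3 channel genes, Scn2a, Cacna1g and Cacna2d2, shared negative ratios in every measured pair and an unadjusted p under 0.05, and none passed adjustment. Of 15 channel genes tested 0 passed in limma, against 8 of 10467 genes (0.0764%). Unadjusted p was under 0.05 for 3, all negative, against 16.2% of all genes in either direction and 8.57% in the negative direction. Scn2a read -0.18, -0.066, -0.19 and -0.39 in pairs 1 to 4. Its mean was -0.21 ± 0.13 (SD, n = 4 pairs), with SE 0.057, unadjusted p = 0.0028, adjusted p = 0.091. Cacna2d2 read -0.092, -0.46, -0.30 and -0.65 in pairs 1 to 4, with a mean of -0.37 ± 0.24 (SD, n = 4 pairs) and SE 0.13, unadjusted p = 0.012, adjusted p = 0.16. Both had all 4 pairs below 0, with the size varying several-fold between pairs. Pair 2 of Scn2a rested on low log2 levels, 5.91 in control and 5.84 in transgenic. Scn3a, detected in 0 extracts, averaged 5.92 in control glia. Cacna1g read -0.41, -0.55, -0.23 and -0.052 in pairs 1 to 4, with a mean of -0.31 ± 0.22 (SD, n = 4 pairs) and SE 0.11, unadjusted p = 0.011, adjusted p = 0.15. Its pair 4 rested on similarly low levels, 5.98 in control and 5.92 in transgenic. Cacna2d4 was also below 0 in every pair, reading -0.13, -0.13, -0.14 and -0.058 in pairs 1 to 4, with a mean of -0.11 ± 0.037 (SD, n = 4 pairs) and SE 0.054, unadjusted p = 0.053, adjusted p = 0.32. Below 0 in every pair were 4 channel genes and above 0 in every pair 0, against 11.4% and 11.2% of all genes. Pooled over pairs, the SD between dye-swapped arrays was 0.45 for Cacna2d2, 0.46 for Cacna1g and 0.28 for Cacna2d4. Each of these exceeded the size of the gene's mean ratio. For Scn2a the SD was 0.11, below the size of its mean ratio.

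The glia pairs of SOD1-G93A came from 3 scan batches, of which only scan batch 3, with pairs 3 and 4, held more than 1. Within it the means were -0.29 for Scn2a, -0.47 for Cacna2d2, -0.10 for Cacna2d4 and -0.14 for Cacna1g. The mean of Cacna1g was nearer 0 there than over all 4 pairs, and it includes pair 4 with the low levels given above. Without pair 2, of scan batch 5, the means of the other 3 pairs were -0.25 for Scn2a, -0.35 for Cacna2d2, -0.11 for Cacna2d4 and -0.23 for Cacna1g. Pairs 3 and 4 are also the only pairs of the comparison whose dye-swapped arrays correlated above 0. Cacna2d4 turned to 0.011 when each array was centred on its median in place of loess. The other 11 channel genes tested in SODgl had pairs on both sides of 0, among them Cacna2d3, which read -0.070, -0.17, 0.69 and -0.28 in pairs 1 to 4. The channel genes' median was -0.033, with all genes at 0.016.

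In TAU-P301L motor neurons 0 of 17 channel genes passed and 0 had an unadjusted p under 0.05. Of all 11640 genes 0 passed (0%) in limma and 4.18% had an unadjusted p under 0.05. Ratios lay between -0.21 and 0.15, with a median of -0.021 beside -0.0061 for all genes. The upper end was Cacna2d3, the 1 channel gene above 0 in every pair, against 6.63% of all genes. It read 0.11, 0.21, 0.11 and 0.16 in pairs 1 to 4, with a mean of 0.15 ± 0.047 (SD, n = 4 pairs) and SE 0.13, unadjusted p = 0.28, adjusted p = 0.996. The pairs lay close together, and the test's larger SE comes from the spread of this gene over all 16 pairs. The lower end was Scn2b, which read 0.016, -0.73, 0.15 and -0.28 in pairs 1 to 4. Of the sodium channel pore genes, Scn2a averaged -0.073 ± 0.094 (SD, n = 4 pairs) and Scn4a -0.012 ± 0.015 (SD, n = 4 pairs).

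In TAU-P301L glia Cacna2d2, Scn2a and Cacna2d4 had negative mean ratios and the smallest p-values among the channels, and none passed adjustment. Of 13 channel genes tested 0 passed, and of all 8928 genes 0 passed (0%) in limma. Unadjusted p was under 0.05 for 3, all negative, against 13.9% of all genes in either direction and 8.74% in the negative direction. Scn2a read -0.067, -0.078, -0.36 and -0.11 in pairs 1 to 4, with a mean of -0.15 ± 0.14 (SD, n = 4 pairs) and SE 0.057, unadjusted p = 0.016, adjusted p = 0.26. Scn2a thus owes its mean mostly to pair 3. Its pair 1 lay at log2 levels of 5.99 in control and 5.92 in transgenic, though the gene was detected in all 8 extracts. Cacna2d4 read -0.015, -0.022, -0.33 and -0.15 in pairs 1 to 4, with a mean of -0.13 ± 0.15 (SD, n = 4 pairs) and SE 0.054, unadjusted p = 0.030, adjusted p = 0.30. Cacna2d2 read 0.11, -0.10, -0.64 and -0.91 in pairs 1 to 4, with a mean of -0.39 ± 0.47 (SD, n = 4 pairs) and SE 0.13, unadjusted p = 0.010, adjusted p = 0.24. For Cacna2d2 pair 1 was above control and pairs 3 and 4 far below, and the gene was named here after its values were seen. Below 0 in every pair were 2 channel genes, against 12.3% of all genes. Above 0 in every pair was 1, against 11.9%: Cacna1g, which read 0.47, 0.031, 0.11 and 0.063 in pairs 1 to 4, with a mean of 0.17 ± 0.20 (SD, n = 4 pairs) and SE 0.11, unadjusted p = 0.14, adjusted p = 0.54. Pooled over pairs, the SD between dye-swapped arrays was 0.84 for Cacna2d2, 0.39 for Scn2a, 0.42 for Cacna2d4 and 0.73 for Cacna1g. Each of these exceeded the size of the gene's mean ratio.

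Within scan batch 4, the only one with more than 1 TAUgl pair (3 and 4), the means were -0.78 for Cacna2d2, -0.24 for Scn2a, -0.24 for Cacna2d4 and 0.087 for Cacna1g. For the first 3 these were larger in size than the means of all pairs. Without pair 1, of scan batch 5, Cacna2d2 gave -0.55, Scn2a -0.18, Cacna2d4 -0.17 and Cacna1g 0.068, so the Cacna1g mean rested on pair 1. Cell type markers leaned to 1 side in TAUgl too, and none passed the test. Of 14 measurable astrocyte markers 13 had ratios below 0 in TAUgl, with a median of -0.15. In SODgl it was 3 of 14, with a median of 0.060. Of 12 measurable oligodendrocyte markers 8 were below 0 in TAUgl, with a median of -0.067, and 3 of 13 in SODgl, with a median of 0.070. Of the neuronal lists, 2 leaned the other way in TAUgl: 8 of 11 motor neuron markers were above 0, with a median of 0.20, and 7 of 10 general neuron markers, with a median of 0.081. In SODgl the medians of these 2 lists were 0.012 and 0.016. Interneuron markers did not lean that way in TAUgl, with 2 of 5 above 0 and a median of -0.029. Without the pair of scan batch 5 it was 4 of 5, with a median of 0.099. Without the pairs of scan batch 5 the astrocyte medians were -0.17 in TAUgl and 0.045 in SODgl, the oligodendrocyte medians -0.091 and 0.022, the motor neuron medians 0.091 and 0.16, and the general neuron medians 0.15 and 0.11. No marker of these lists passed adjustment in either comparison. The part of these markers in the channel values was not tested.

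**Figure D3:**
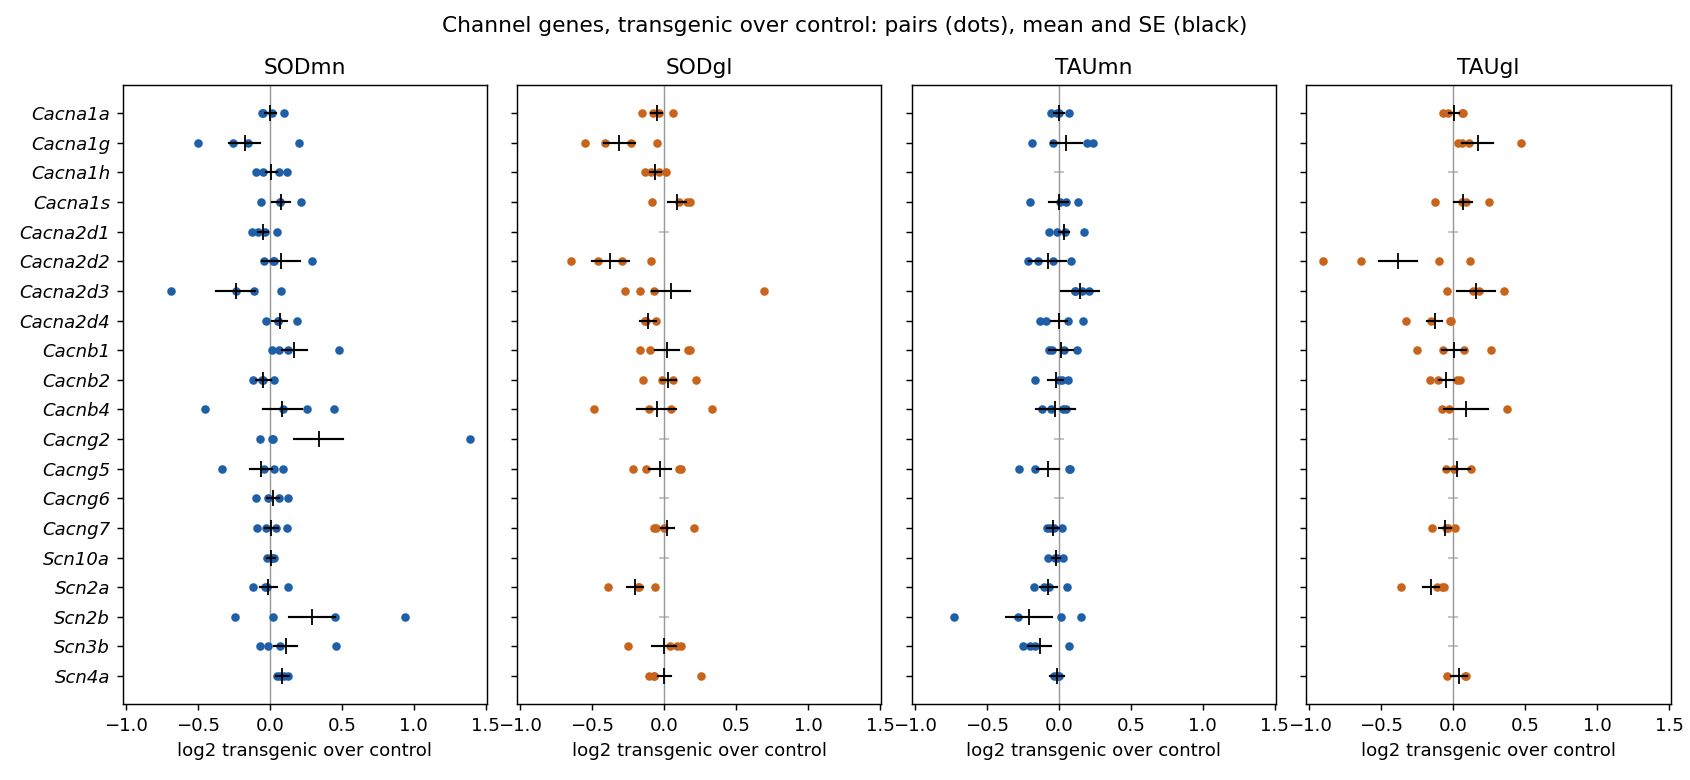
Log2 ratios of transgenic over control (horizontal axes) for the 20 channel genes tested in at least 1 comparison, with dots for pairs and black bars for the mean and its SE; a gene not tested in a comparison has a grey dash. In SODgl and TAUgl the dots of Scn2a and Cacna2d4 all lie left of 0, and in SODmn the mean of Cacng2 is set by 1 dot at 1.39.

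The 2 glia comparisons share no extract, but pairs 1 and 2 of each were scanned in batches 5 and 6, which held both models. The channels were set side by side. Of 13 channel genes tested in both, 7 had the same sign (53.8%), against 61.1% of 8447 genes, which is no more than the background. The 3 genes negative in both were Cacna2d2, Scn2a and Cacna2d4. An unadjusted p under 0.05 in the negative direction in both models was found for 2 of the 13 (15.4%), Cacna2d2 and Scn2a, and for 504 of the 8447 genes (5.97%). Across genes, which are not independent replicates, the means of the 13 correlated at r = 0.51, and those of all genes at r = 0.41. Without the pairs of scan batch 5 the same sign was found for 8 of the 13 (61.5%), against 62.2% of all genes, 5 of the 13 were negative in both, and r was 0.71, against 0.49. Cacna1g was the gene with the largest contrast, at -0.31 in SODgl and 0.17 in TAUgl. Its difference, SODgl minus TAUgl, was -0.48 ± 0.15 (SE), unadjusted p = 0.0067, adjusted p = 0.62. Of 15 channel genes 0 passed in that difference, of all 10948 genes 0 (0%), and 6.20% of all genes had an unadjusted p under 0.05. The 3 negative genes are the ones with the largest control differences towards glia given above. Those differences use the same control glia extracts as the ratios, so a high control value enters both.

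**Figure D4:**
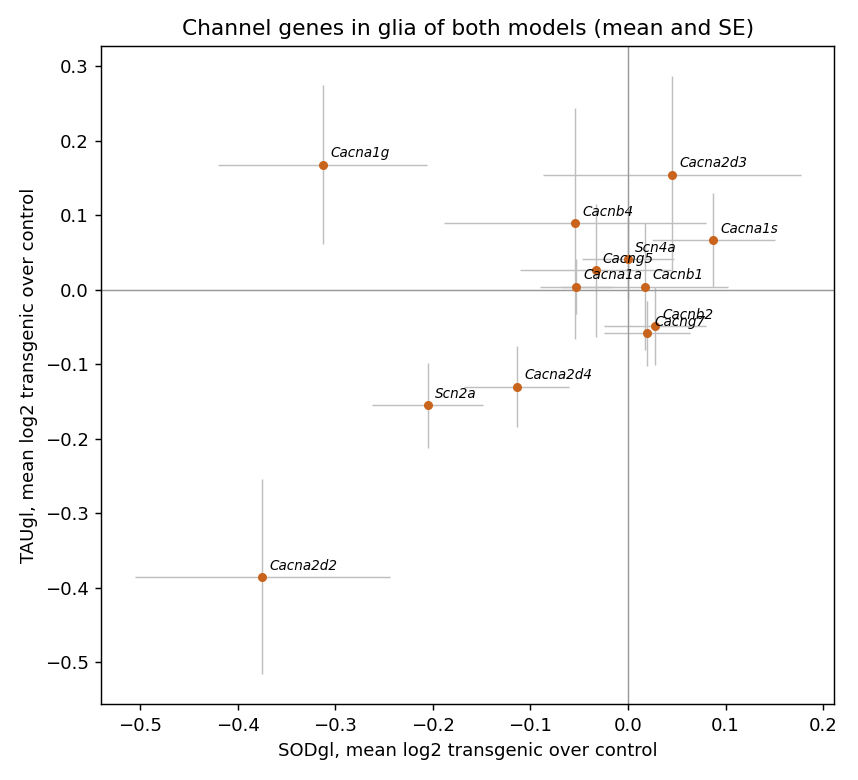
Mean log2 ratio in SODgl (horizontal axis) against TAUgl (vertical axis) for the 13 channel genes tested in both, with SE bars from limma. Cacna2d2, Scn2a and Cacna2d4 lie in the lower left, Cacna1g lies in the upper left, and of the other 9 the farthest from 0 is Cacna2d3, at 0.15 in TAUgl.

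The ratios in glia were also set against those in motor neurons of the same model. Cacna2d2 averaged 0.076 ± 0.15 (SD, n = 4 pairs) in SODmn, and the difference SODmn minus SODgl was 0.45 ± 0.18 (SE), unadjusted p = 0.028, adjusted p = 0.31. For Scn2a it was 0.19 ± 0.080 (SE), unadjusted p = 0.029, adjusted p = 0.32, and for Cacna2d4 0.18 ± 0.076 (SE), unadjusted p = 0.032, adjusted p = 0.33. None of the 20 channel genes passed, and none of 13990 genes (0%), with an unadjusted p under 0.05 in 12.9% of all genes and in these 3 channel genes. In that difference 10 of 10 general neuron markers were below 0, with a median of -0.17, and 7 of 13 oligodendrocyte markers, with a median of -0.0017. Their part was not tested. In the TAU-P301L mice, for TAUmn minus TAUgl, 0 of 17 channel genes passed and 0 had an unadjusted p under 0.05, against 0 of 12160 genes (0%) in limma and 4.98%. Between the motor neuron comparisons, SODmn minus TAUmn, 0 of 20 channel genes and 0 of 13625 genes passed (0%). Scn2b was the 1 channel gene with an unadjusted p under 0.05, against 10.2% of all genes, at 0.50 ± 0.23 (SE), unadjusted p = 0.044, adjusted p = 0.48. No test thus showed that a ratio in glia differed from that in motor neurons after adjustment.

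Other probes of the same genes were mostly too dim to add to these values. Of 32 probes that were not the brightest of their gene, 6 passed the filter in a comparison, and 18 of the 35 genes had 1 probe. The next probe of Cacna2d2 differed by -0.36 between control motor neurons and glia, the same direction as its brightest. For Scn3b the directions differed: its next probe, detected in 9 of 16 control extracts, gave -0.29, and its brightest, detected in 6 and so not tested, 0.12. No further probe passed the filter for levels. The ratio of the next Cacna2d2 probe was -0.071 in SODgl and -0.072 in TAUgl, smaller than the brightest probe's. The next probe of Scn2a differed by -0.49 between control motor neurons and glia and gave -0.059 in SODgl, from 4 detected extracts of 8, and 0.0083 in TAUgl, from 3. It was detected in 5 of 16 control extracts, too few for the filter for levels, and its TAUgl value lay on the other side of 0 from that of the brightest probe. Probes of a gene can read different transcripts, and their sequences were not used here.

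The partners of the channels were read from 3 lists. Of 16 genes of sodium channel partners at the axon initial segment and node, 13 were tested in SODgl, and 1 was higher and 0 lower after adjustment: Ank3, the ankyrin G that clusters sodium channels, at 0.63 ± 0.10 (SE, adjusted p = 0.047). Over all genes 8 of 10467 (0.0764%) passed in SODgl. The Ank3 call was lost without any 1 of the 4 pairs, with an adjusted p of up to 0.15 without pair 4. In all it was lost in 16 of 19 alternatives, among them processed signals (adjusted p = 0.25), the authors' series matrix (adjusted p = 0.067) and median centring (adjusted p = 0.40). In SODmn, TAUmn and TAUgl 0 of 14, 0 of 14 and 0 of 11 of these partners passed. Sptbn4, the spectrin bound to ankyrin G, was chosen after its values were seen, at -0.48 ± 0.11 (SE, adjusted p = 0.084) in SODgl and -0.43 ± 0.11 (SE, adjusted p = 0.19) in TAUgl. Of 24 calcium channel regulators 0 passed in any of the 4 comparisons, with 10 to 16 tested. The smallest p belonged to the calmodulin genes in SODgl, Calm3 at 0.46 ± 0.12 (SE, adjusted p = 0.098) and Calm2 at -0.61 ± 0.19 (SE, adjusted p = 0.14). Of the 17 listed genes on the array for other sodium and calcium channels and calcium extrusion 0 passed, with 9 to 14 tested. The sodium-calcium exchanger Slc8a1 stood at -0.13 ± 0.033 (SE, adjusted p = 0.084) in SODgl and Slc8a2 at 0.13 ± 0.055 (SE, adjusted p = 0.45) in SODmn. Without the pair of scan batch 5 the SODgl means were -0.40 for Sptbn4, 0.64 for Calm3, -0.53 for Calm2 and -0.15 for Slc8a1, and the TAUgl mean of Sptbn4 was -0.50, none of them past the threshold.

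Between control motor neurons and control glia several partners passed the test in each direction, beside 26.1% of all genes towards motor neurons and 14.5% towards glia. Of 14 initial segment partners tested, 3 passed towards motor neurons and 1 towards glia, with Fgf14, a sodium channel binding protein, at 0.48 ± 0.068 (SE, adjusted p = 1.8e-04) and Ank3 at 0.71 ± 0.17 (SE, adjusted p = 0.0048). Of 14 calcium channel regulators, 5 passed towards motor neurons and 1 towards glia, with the release protein Snap25 at 1.82 ± 0.30 (SE, adjusted p = 4.8e-04) and the active zone protein Rims1 at 0.59 ± 0.080 (SE, adjusted p = 1.5e-04). Of 12 genes for other channels and extrusion, 4 passed towards motor neurons and 1 towards glia, with the ryanodine receptor Ryr3 at 0.50 ± 0.078 (SE, adjusted p = 3.3e-04) and Slc8a1 at -0.45 ± 0.11 (SE, adjusted p = 0.0053). The Ank3 call between captures was lost, at 0.28 when extracts with a value on 1 array were kept, with an adjusted p of 0.62. It was also lost in the B6SJL colony alone (adjusted p = 0.20) and without the pairs whose arrays correlated below 0 (adjusted p = 0.065). In the B6SJL colony alone Snap25 (adjusted p = 0.058), Ryr3 (adjusted p = 0.090) and Slc8a1 (adjusted p = 0.12) lost their calls too. Without the extracts of scan batch 5 the 6 named calls, of Fgf14, Ank3, Snap25, Rims1, Ryr3 and Slc8a1, were kept.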

How the data were processed

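RNA of 16 transgenic and control littermate pairs was read on 32 arrays, 1 pair per array and each pair on 2 arrays with the dyes exchanged. The deposited files hold spot and background intensity and per the file headers a log10 ratio, red over green, from the scanner software. Agilent Feature Extraction wrote them, version 8.5.1.1 for motor neurons and 9.5.1.1 for glia per the file headers, and 8.5.1.1 per the submitters' processing notes. The authors' series matrix, deposited as log10 ratios, correlated with the scanner ratios at 0.982 to 0.999 per array, and was used as an alternative. The genome build and the annotation behind the array names are not given in the sources used here. Gene names were updated by accession for 23374 probes, by symbol for 6733 and by synonym for 2919, and 8148 kept the file's name.

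In limma 3.58.1 (R 4.3.3), intensities were corrected by normexp with an offset of 50 and normalised by loess within arrays, with control spots at weight 0. Spots marked as outliers were left out and saturated spots kept. Log2 ratios were turned to transgenic over control, and the 2 arrays of a pair were averaged; a pair lacking either array has no value. A single linear model held all 16 pairs with a mean per comparison. A gene was tested where 4 or more of the 8 extracts compared had its brightest probe detected, that is well above background on each array. P-values were adjusted by Benjamini-Hochberg over all genes tested, with a threshold of 0.05. Levels are single-channel log2 intensities after Aquantile normalisation between arrays, over 16 control extracts with colony as a term, tested where at least 8 were detected. The fits were tested on simulated data. Pairs come from separate littermates, but their number, 4 per comparison, limits the precision.

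The genes and lists were chosen with earlier results of these data known. Genes named with values are those past the threshold, then up to 6 in each direction with the smallest p among those of 1 sign in every pair, and for levels up to 6 more with the smallest p. Other channel genes given with values for a comparison were chosen after their values were seen. Among these are Cacna2d2 in TAUgl, Cacna2d3 in SODgl and Scn2b, Scn2a and Scn4a in TAUmn. A few genes with such names are not reported here. Alternatives covered background correction, normalisation, filters, probe choice, scan batch, colony, the replicate number as a block and each replicate left out.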

Additional observations from a re-analysis of the deposited data

Results flagged for a closer look

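Of 32 sets of 4 to 8 values checked for a sample far from the others, 3 had one, and chance gives about 1 in 20. For Cacna2d4 in SODgl, pair 4 was at -0.058 while the others lay between -0.14 and -0.13. For Scn2a in TAUgl, pair 3 was at -0.36 while the others lay between -0.11 and -0.067. For the Cacna1s level in control glia, TAUgl extract 4 was at 5.98 while the others lay between 6.34 and 6.65.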

How the results depend on the processing

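In the 4 comparisons and 4 differences, 0 channel genes passed under every alternative run, as in the tests reported, while the calls over all genes ran from 0 to 27 in SODmn, 0 to 10 in SODgl, 0 to 13 in TAUmn and 0 to 2 in TAUgl. Of 1040 single-gene values under alternatives, 971 kept direction and side of the threshold, 48 lost the call, 16 gained one and 5 reversed. The reversals were Cacna2d4 in SODgl at 0.011 with median centring, Cacnb2 at -0.012 without scan batch 5, and with 75th percentile scaling Cacng7 at 0.023, Cacnb1 at 0.26 and Mbp at 0.45. The median of channel genes in SODmn was 0.11 with processed signals, 0.12 with detection in all extracts and 0.17 in the authors' series matrix. In SODgl it was -0.064 with processed signals, 0.0025 with median centring, 9.6e-05 with detection in all extracts and -0.083 in the matrix. In TAUmn it was -0.070 with processed signals, -0.083 in the matrix, -0.0061 without a filter, 0.0079 with detection in all extracts, -0.0071 with the mean of probes, and -0.046 and -0.035 within scan batches 1 and 2. In TAUgl it was -0.15 with detection in all extracts and -0.048 without pairs whose dye-swapped arrays correlated below 0. Leaving out 1 pair gave medians from 0.0024 to 0.052 in SODmn, -0.045 to -0.034 in SODgl, -0.026 to -0.016 in TAUmn and -0.020 to 0.036 in TAUgl. Between control captures the calls over all genes ran from 209 with detection in all extracts to 7385 without a filter. The channel counts that follow are therefore not read as results about the channels. Channel genes higher in control motor neurons numbered 5 with 75th percentile scaling, 5 without a filter and 0 with detection in all extracts, where 2 channel genes were tested, and 3 to 4 with 1 extract left out. Channel genes higher in control glia numbered 4 with processed signals, 5 without scan batch 5 and 4 without pairs whose arrays correlated below 0. They numbered 1 with 75th percentile scaling, without a filter, with detection in all extracts, in the transgenic extracts and in either colony alone, and 1 to 3 with 1 extract left out. Leaving out scan batch 5, and for levels the pairs correlating below 0, was chosen after seeing the data. Apart from fewer genes or extracts, the cause was not tested. The replicate number as a block left 0 calls in the differences and brought Cacna1s (adjusted p = 0.037) and Scn2a (adjusted p = 0.045) past the threshold between control captures; same-numbered pairs correlated between -0.17 and 0.32 in the deviations of their ratios and between -0.44 and 0.65 in those of their control levels. The levels of SODmn and TAUmn correlated above 0.1 in all 4 numbers (0.15 to 0.49), but those of motor neurons and glia, the groups of that comparison, did so in 2 of 4 in the B6SJL colony and 3 of 4 in the B6D2F1 colony, so the numbers were not taken to pair the samples. SODmn and TAUmn pairs of the same number also shared a scan batch, while motor neuron and glia pairs shared none. The part of the scan in these correlations was not tested. Dim probes limit what could be seen: 15 channel genes were tested in no comparison.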
